A study of Mus musculus with 3 samples.

Results

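Uterine endothelium was taken here as 63 of the 1825 cells that passed a quality filter, out of 2775 cell barcodes, in 1 single-cell RNA library from mouse uterus on pregnancy day 7.5. A barcode passed if it had 500 or more detected genes and no more than 20% of its unique molecular identifiers (UMIs, each counting 1 captured RNA molecule) came from mitochondrial genes. It counted as endothelial with at least 4 UMIs summed over Cdh5, Cldn5, Ptprb, Mmrn2 and Ecscr, at most 1 UMI of the leukocyte gene Ptprc, fewer than 3 UMIs summed over the epithelial genes Epcam, Cdh1, Cldn3 and Cldn4, and fewer than 5 UMIs of the decidual gene Tdo2 per 10000. Those measured values chose the cells, so they are given as a description and support nothing. The endothelial threshold was met by 67 cells, of which 4 failed another limit. Just inside it lay 6 cells with 4 UMIs and 4 cells with 5, and just outside it 11 cells with 3 UMIs and 31 with 2.

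The animals were mated females, housed with littermates to 8 weeks of age and dissected on pregnancy day 7.5. Their uteri were dissociated with trypsin, and 3' libraries were made on the 10x Genomics droplet platform. The labels of this library give no genotype and do not say how many animals were pooled. Of the other 2 samples of the series, one is labelled Prl8a2icre/+ Sun1-GFPLsL/+ and the other Sun1-GFPLsL/+, and neither was analysed here. With 1 library there is no replicate, so no p-value is given. All intervals are exact, at 95%, and reflect counting error alone, and cells of 1 library are not replicates.

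The 63 endothelial cells held 522689 UMIs, against 14187230 UMIs in the 1762 other cells. An endothelial cell had a median of 6887 UMIs (1839 to 26103) and 2771 detected genes, and another cell a median of 4390.5 UMIs and 1829 genes. The median mitochondrial share was 3.72% in endothelial cells and 4.23% in the others. Endothelial cells made up 3.45% of the cells that passed (exact binomial interval 2.66% to 4.40%), which is a share of captured cells and not of the tissue. The thresholds of the selection rule divide the other cells into 636 immune, 294 epithelial, 108 decidual and 724 remaining cells, the last being a mixture with strong stromal and pericyte genes. Levels below are UMIs per 1000000 UMIs of the same cells (CPM), so they compare a gene between cells and not genes with each other.

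Endothelial cells line the blood and lymphatic vessels. They sense vascular endothelial growth factor (VEGF) through receptor tyrosine kinases, hold together through VE-cadherin and claudin junctions, and take arterial, venous, capillary or lymphatic identities under Notch, the venous factor Nr2f2 and the lymphatic factor Prox1. After implantation the mouse decidua builds a dense vascular bed around the embryo before a placenta carries blood. Factors of the ETS family, which recognise a core of GGAA, are well known regulators of endothelial genes.

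Promoter windows were examined for the 20 genes with the highest endothelial-to-other ratio by the lower end of its interval, among genes outside the selection rule with at least 30 endothelial UMIs. These were Gpihbp1, Sox18, Plvap, Adgrl4, Myct1, Sema3g, Gja5, Ushbp1, Cyyr1, Ccl21a, Mmrn1, Emcn, Dysf, Aplnr, Flt4, Ces2e, Kdr, Tie1, Syt15 and Robo4. RefSeq windows on GRCm38.p6, running from 250 bases before to 50 bases after the transcript start, were matched for 16 of the 20 genes (17 windows). The ETS-type word CAGGAA stood on either strand in 58.8% of the 17 windows, against 30.6% of all 32851 windows. CCGGAA stood in 17.6% of the 17 windows, against 14.9% of all windows. Either word stood in 70.6% against 41.4%. A match is a description of letters and not a binding site, and no enrichment test was made. The windows below belong to genes with different distributions over the cell sets that follow. Kdr lay in blood and lymphatic cells and Emcn mostly in blood-type cells. Mmrn1 lay in lymphatic-gene-positive cells and Gja5 in arterial-rich cells. Mmrn1 and Gja5 are among the genes used below to define those sets. Their distribution over the sets is therefore a description and not a finding. The 2 words share their last 4 letters, and a match of CCGGAA on one strand can overlap a match on the other. Each window is written on the strand of its gene, with the words, or their reverse complements TTCCTG and TTCCGG, in capitals.
Kdr, chr5:75978406-75978705, minus strand: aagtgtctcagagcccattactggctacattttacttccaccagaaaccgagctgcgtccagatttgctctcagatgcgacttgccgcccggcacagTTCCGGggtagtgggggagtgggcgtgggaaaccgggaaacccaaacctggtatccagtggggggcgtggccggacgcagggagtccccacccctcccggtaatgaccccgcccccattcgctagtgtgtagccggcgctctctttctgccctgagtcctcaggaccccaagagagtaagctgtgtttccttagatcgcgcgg
Emcn, chr3:137340828-137341127, plus strand: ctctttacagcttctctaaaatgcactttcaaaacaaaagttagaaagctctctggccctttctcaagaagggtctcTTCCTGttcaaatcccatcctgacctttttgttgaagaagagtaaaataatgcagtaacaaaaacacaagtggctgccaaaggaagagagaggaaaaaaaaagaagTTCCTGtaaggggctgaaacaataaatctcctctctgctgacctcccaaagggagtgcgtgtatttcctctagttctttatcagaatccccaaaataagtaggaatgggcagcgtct
Mmrn1, chr6:60944067-60944366, plus strand: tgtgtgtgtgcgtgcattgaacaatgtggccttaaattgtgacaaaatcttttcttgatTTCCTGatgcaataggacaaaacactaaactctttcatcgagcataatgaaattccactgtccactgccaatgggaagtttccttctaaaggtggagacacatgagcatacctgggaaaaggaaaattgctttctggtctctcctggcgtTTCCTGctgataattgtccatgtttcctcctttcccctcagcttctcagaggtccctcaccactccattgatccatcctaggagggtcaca
Gja5, chr3:97032152-97032451, plus strand: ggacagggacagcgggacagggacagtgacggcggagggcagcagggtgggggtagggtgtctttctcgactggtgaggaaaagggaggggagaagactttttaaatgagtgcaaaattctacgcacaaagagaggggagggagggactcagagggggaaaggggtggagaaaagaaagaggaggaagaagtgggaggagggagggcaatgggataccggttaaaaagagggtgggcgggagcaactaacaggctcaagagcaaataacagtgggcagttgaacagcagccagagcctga
The window of Kdr holds CCGGAA once and those of Emcn and Mmrn1 hold CAGGAA at 2 positions each. The window of Gja5 holds neither word.

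The label was checked against Flt1 and Kdr, the VEGF receptors 1 and 2, which the rule did not use. Flt1 had at least 1 UMI in 53 of the 63 cells (84.1%) and Kdr in 56 (88.9%). In epithelial cells, which should lack both, Flt1 had a UMI in 5 of 294 cells and Kdr in 0. The median depth was 6887 UMIs in endothelial and 10744 UMIs in epithelial cells. Thinned to 2000 UMIs, 43 of 62 endothelial cells kept a Flt1 UMI and 39 a Kdr UMI. Pecam1, an adhesion molecule of vessels and of some leukocytes, had a UMI in 57 endothelial cells.

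The markers went against the label in 5 of the 63 cells. These held 4 or 5 UMIs of Cdh5 and none of the other 4 rule genes, and had 0 UMIs of Flt1, Kdr, Pecam1, Emcn, Tie1, Tek and Egfl7. They held 113 of the 127 UMIs that all 63 cells had of a list of 7 stromal genes (Col1a1, Col1a2, Col3a1, Dcn, Lum, Dpt and Pdgfra), at 28.4 to 63.4 UMIs per 10000, against 0 to 3.38 in the 53 blood-type cells described below and a median of 35.6 in remaining cells. Pdgfra, the PDGF receptor of stromal cells, had 2, 2, 12, 8 and 5 UMIs in the 5 cells. Cdh5 had a UMI in 107 of the 724 remaining cells, which lie outside the rule. The 5 cells are kept in the totals because they meet the rule, and the values of Pgr, Esr1, Bmpr1a, Dpt, Ctla2a and Igfbp5 are also given without them below.

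**Figure D1:**
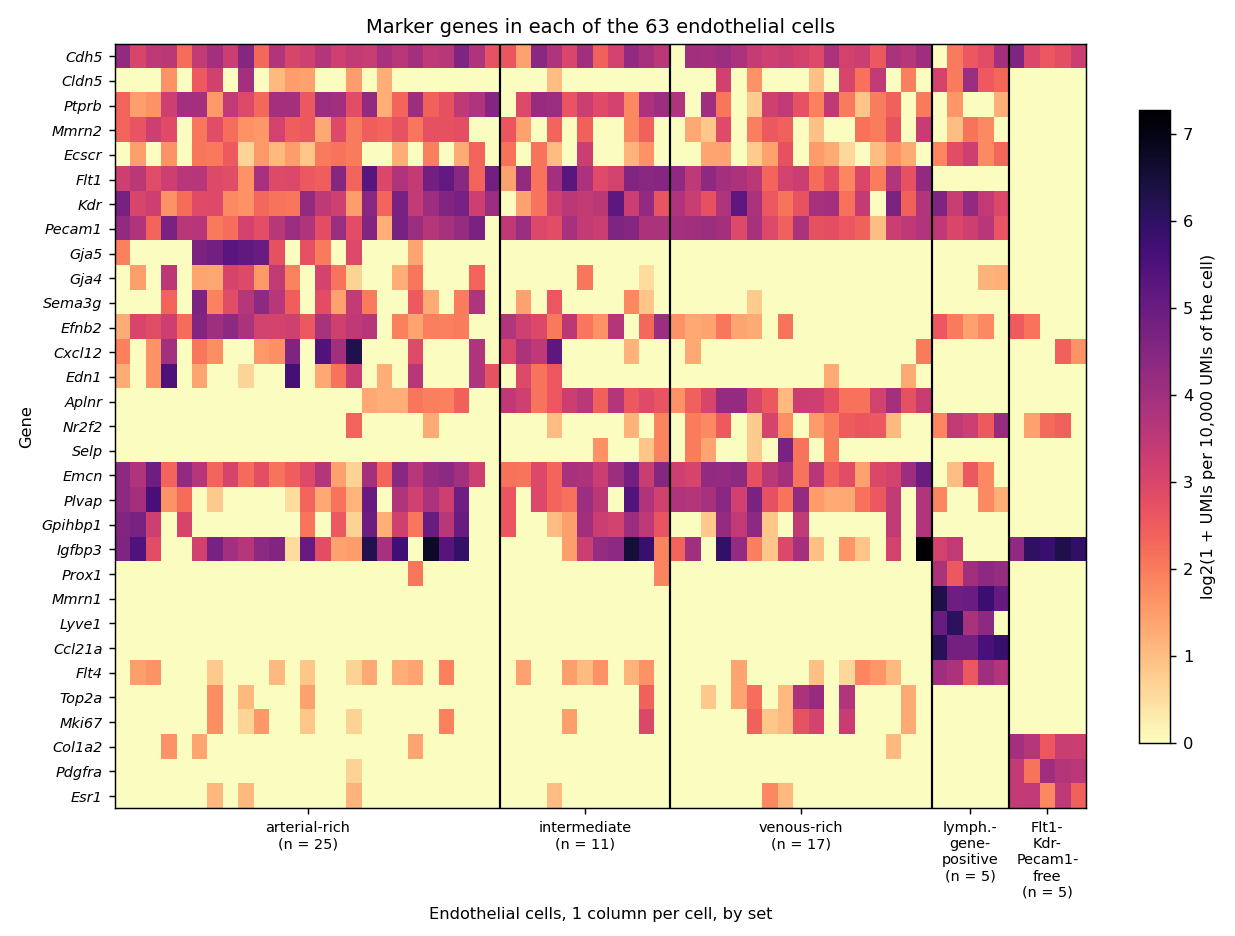
Each column is 1 of the 63 cells and each row a gene, coloured by log2(1 + UMIs per 10,000 UMIs of the cell). Columns are grouped as 25 arterial-rich, 11 intermediate, 17 venous-rich, 5 lymphatic-gene-positive and 5 Flt1-Kdr-Pecam1-free cells. The last 5 columns hold Cdh5, Igfbp3, Col1a2 and Pdgfra and none of Flt1, Kdr and Pecam1, and the lymphatic genes fill 5 columns that lack Flt1.

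Genes known for endothelium, led by vessel receptors and surface proteins, were far higher in these cells than in the rest of the uterus. A gene was compared where the endothelial cells held at least 10 UMIs or the level of the other cells predicted at least 10 there. It was called higher or lower when the ratio reached 2-fold and its interval did not include 1. Over all 8420 genes compared, 18.6% were higher in endothelial cells and 14.3% were lower. The median log2 ratio was 0.17. Gene lists covering 442 genes outside the rule gave 353 that could be compared, of which 162 were higher and 81 lower. A low-abundance gene could enter only where endothelial cells held it, so these counts describe the compared genes and not all listed genes.

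All 24 pan-endothelial genes outside the rule were higher, with a median log2 ratio of 7.04. Flt1 had a lowest, median and highest count of 0, 6 and 51 UMIs over the 63 cells and stood at 976 CPM in endothelial cells and 5.0 CPM in all other cells (ratio 195, 152 to 254). Pecam1 stood at 991 CPM in endothelial cells and 50.4 CPM in all other cells (ratio 19.7, 17.5 to 22). Its 112 CPM in immune cells made up most of the level outside endothelium. Emcn, the sialomucin endomucin of veins and capillaries, stood at 828 CPM in endothelial cells and 2.68 CPM in all other cells (ratio 309, 222 to 443). The 5 rule genes lay between 176 CPM for Ecscr and 1048 CPM for Cdh5 in endothelial cells.

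By the lower end of the interval, the highest ratios outside the rule belonged to Gpihbp1, Sox18 and Plvap. Sox18, a transcription factor of blood and lymphatic vessels, stood at 394 CPM in endothelial cells and 0.282 CPM in all other cells (ratio 1398, 538 to 5179), with 4 UMIs in all other cells together. Gpihbp1, which anchors lipoprotein lipase on capillary endothelium, stood at 518 CPM in endothelial cells and 0.423 CPM in all other cells (ratio 1226, 556 to 3370.1). It had a UMI in 31 of the 63 cells. Plvap, which forms the diaphragms of fenestrae and caveolae, stood at 740.4 CPM in endothelial cells and 0.846 CPM in all other cells (ratio 875, 495 to 1709). Adgrl4, an adhesion receptor of angiogenic vessels, was present in 53 cells at 605 against 0.705 CPM. The other members of the 20 had 111 to 934 CPM in endothelial cells and at most 3.74 CPM elsewhere.

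**Figure D2:**
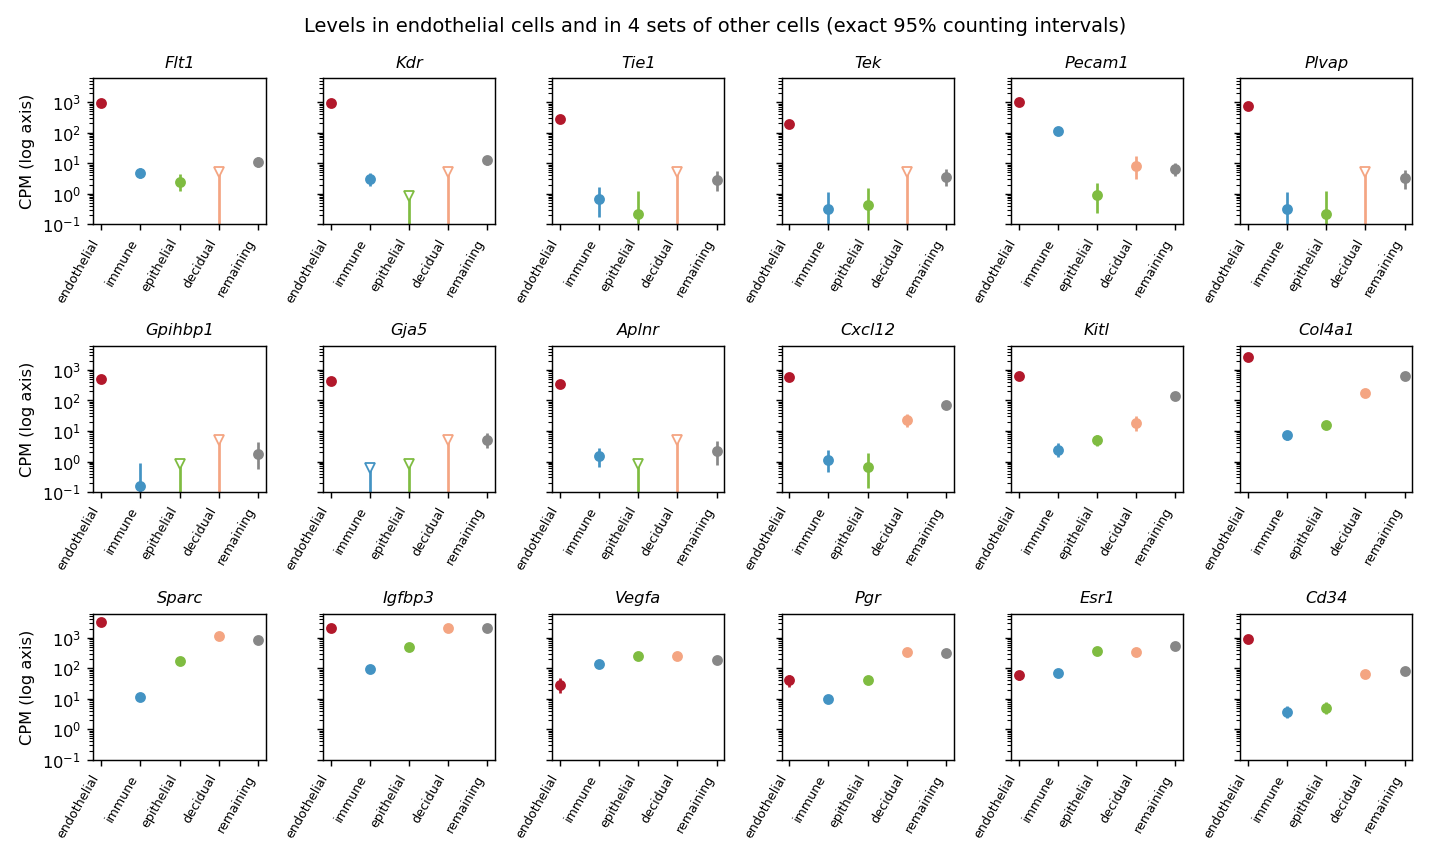
CPM on a log axis for 18 genes in endothelial cells (left in each panel) and in immune, epithelial, decidual and remaining cells, with exact 95% counting intervals and open triangles at the upper bound where the count was 0. Flt1, Kdr, Tie1, Tek, Plvap, Gpihbp1, Gja5 and Aplnr stand far above all 4 other sets, whereas Igfbp3 overlaps decidual and remaining cells and Vegfa, Pgr and Esr1 are low.

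All 8 receptors for VEGF, angiopoietins and semaphorins on the list were higher. Kdr, the main signalling receptor for VEGF-A, is encoded on the minus strand at chr5:75932827-75978458 of GRCm38. It had 0, 6 and 42 UMIs as its lowest, median and highest count per cell, and stood at 934 CPM in endothelial cells and 3.74 CPM in all other cells (ratio 249.9, 188 to 338). Tie1, the orphan partner of the angiopoietin receptor, stood at 281 CPM in endothelial cells and 0.916 CPM in all other cells (ratio 307, 174 to 590.1). Plxnd1, a semaphorin receptor, stood at 455 CPM in endothelial cells and 14.9 CPM in all other cells (ratio 30.6, 25.3 to 37). Ligands of these pathways were scarce in the endothelial cells themselves. Vegfa was lower, at 28.7 CPM in endothelial cells and 189 CPM in all other cells (ratio 0.152, 0.0848 to 0.251), and its levels elsewhere were 255 CPM in decidual, 251 CPM in epithelial, 185 CPM in remaining and 137 CPM in immune cells. Of its 15 endothelial UMIs, 5 lay in the 5 Cdh5-only cells. Apln, the apelin ligand of sprouting tips, was higher on 19 UMIs in 5 cells (36.4 against 0.211 CPM). Angpt2, a destabilising angiopoietin, was higher than in all other cells at 34.4 against 14.8 CPM, but not than in remaining cells alone, which held 35.3 CPM (ratio 0.977, 0.556 to 1.63).

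The Notch pathway, which sets arterial fate and sprout spacing, had 7 of 10 compared genes higher and 1 lower. Dll4, the tip and arterial ligand, stood at 130.1 CPM in endothelial cells and 1.13 CPM in all other cells (ratio 115, 66.2 to 213). Notch1 stood at 427 CPM in endothelial cells and 33.9 CPM in all other cells (ratio 12.6, 10.7 to 14.8) and had a UMI in 50 cells. The ligand Jag1 was spread unevenly, with 197 UMIs in 17 cells. Notch2 was lower, with 2 UMIs in the 63 cells (3.83 against 48.4 CPM). The target Hes1 was present at 518 against 282 CPM and did not reach 2-fold.

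In the BMP and TGF-beta list, 8 of 16 compared genes were higher and 2 lower. The coreceptor Eng stood at 509 CPM in endothelial cells and 6.13 CPM in all other cells (ratio 83, 64.9 to 107), and its partner Acvrl1 at 145 CPM in endothelial cells and 5.0 CPM in all other cells (ratio 29.1, 20.7 to 40.7). Id3, an inhibitor of helix-loop-helix factors, was higher (622 against 82.4 CPM), and its paralogue Id2 was lower (51.7 against 197 CPM). Against the 40.7 CPM of remaining cells alone, Id2 was not lower (ratio 1.27, 0.802 to 1.95). Bmpr1a, a type I BMP receptor, was lower at 11.5 against 53.2 CPM, and without the 5 Cdh5-only cells its ratio was 0.0759 in place of 0.216.

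Endothelial transcription factors had 17 of 22 compared genes higher and 0 lower. Their median log2 ratio was 2.58. Among them were Mef2c (650.5 against 93.4 CPM), Ets1, an ETS factor (641 against 125 CPM), and Epas1, which encodes HIF-2 alpha (633 against 55.4 CPM). Each had a UMI in 56 or 57 cells. Meox1, a homeobox factor, had 28 UMIs in 17 endothelial cells and 1 UMI in all others.

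Basement membrane and integrin genes were mostly higher, with 13 of 21 compared genes higher and 1 lower. Sparc, a collagen-binding glycoprotein, stood at 3344 CPM in endothelial cells and 282 CPM in all other cells (ratio 11.8, 11.2 to 12.5). Col4a1, the alpha 1 chain of type IV collagen, had a UMI in 62 cells and stood at 2711 CPM in endothelial cells and 140.3 CPM in all other cells (ratio 19.3, 18 to 20.7). Col4a2, its partner chain, stood at 1314 against 64.4 CPM. Itgav, the alpha V integrin, was the member that was lower (24.9 against 157 CPM). Junction genes had 12 of 17 higher, led by Gja5 and Esam (654 against 15.7 CPM), an immunoglobulin-type adhesion molecule. The epithelial tight junction gene Ocln was lower, with 1 UMI in endothelial cells (1.91 against 31.2 CPM).

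Genes for haemostasis and vascular tone were higher in 16 of 20 compared and lower in 3. Ramp2 and Calcrl, which together form an adrenomedullin receptor, stood at 429 against 9.73 CPM and 448 against 12.3 CPM. Their ligand Adm had 0 UMIs in endothelial cells, at least 10.2-fold lower than its 58.4 CPM elsewhere (3 UMIs over the 63 cells taken as the limit of a count of 0). Nos3, the endothelial nitric oxide synthase, stood at 89.9 CPM in endothelial cells and 0.705 CPM in all other cells (ratio 128, 63.6 to 283). Transport and caveolar genes were higher in 13 of 19 and lower in 5. Cavin2 (744 against 48.4 CPM) and Cav1 (608 against 47.2 CPM), both components of caveolae, were higher, and the transferrin receptor Tfrc (13.4 against 61.9 CPM) and the lactate transporter Slc16a1 (7.65 against 54.3 CPM) were lower.

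Leukocyte adhesion and trafficking genes split, with 8 of 14 higher and 4 lower. Podxl and Cd34, sialomucins of the luminal surface, stood at 951 against 18.3 CPM and 888 against 22.3 CPM. Selp, P-selectin, had 36 UMIs in 9 cells, with 22 of them in 1 cell. The chemokines Cxcl10 (5.74 against 112 CPM) and Cxcl16 (5.74 against 67.4 CPM) were lower, whereas Cxcl12 was higher (578 against 15.8 CPM). Among secreted factors that act on neighbouring cells, 8 of 18 were higher and 3 lower. Kitl, the ligand of the Kit receptor, stood at 652 CPM in endothelial cells and 30.7 CPM in all other cells (ratio 21.3, 18.4 to 24.6) in 52 of 63 cells. Igfbp7, a binding protein of the insulin-like growth factor family, stood at 3256 CPM in endothelial cells and 325 CPM in all other cells (ratio 10.0, 9.48 to 10.6). Igfbp3, a related binding protein, was high against all other cells (2032 against 729 CPM) but not against remaining cells alone, which held 2162 CPM (ratio 0.94, 0.88 to 1.0). Csf1, a growth factor for macrophages, was lower (13.4 against 82.5 CPM), as was the chemokine Ccl2, with 2 UMIs in endothelial cells (ratio 0.128).

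**Figure D3:**
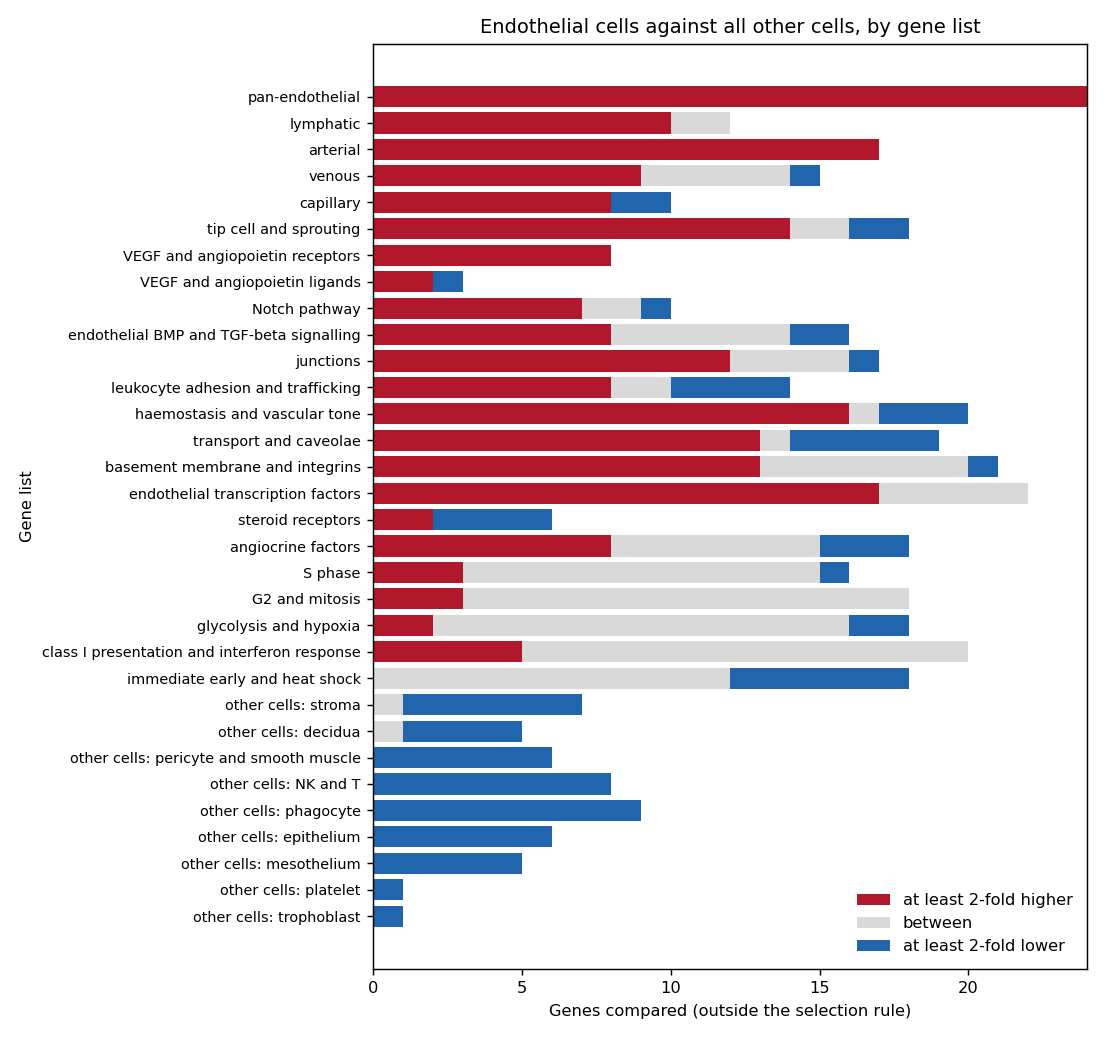
For each gene list, bars give the number of compared genes outside the selection rule that were at least 2-fold higher in endothelial cells than in all other cells, in between, or at least 2-fold lower. All 24 pan-endothelial and all 17 compared arterial genes were higher, and no gene of the lists for other cell types was higher.

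Steroid receptors were mostly low in the endothelial cells, with 2 of 6 compared genes higher and 4 lower. Pgr, the progesterone receptor, had 0, 0 and 3 UMIs as its lowest, median and highest count per cell, with 21 UMIs in 15 of 63 cells. It stood at 40.2 CPM in endothelial cells and 95.9 CPM in all other cells (ratio 0.419, 0.258 to 0.643). The highest count of 3 was reached only in Cdh5-only cells. Without these 5 cells, Pgr had 14 UMIs in 12 of the 53 blood-type cells (30.5 CPM) and 0 UMIs in the lymphatic-gene-positive cells. In remaining cells, it stood at 309 CPM, and in epithelial cells at 42.6 CPM. Esr1, the oestrogen receptor alpha, stood at 59.3 CPM in endothelial cells and 267 CPM in all other cells (ratio 0.223, 0.151 to 0.316). Of its 31 UMIs, 19 lay in the 5 Cdh5-only cells, and without those cells its ratio was 0.0909, 0.0469 to 0.159. The glucocorticoid receptor Nr3c1 was higher, at 189 CPM in endothelial cells and 55.8 CPM in all other cells (ratio 3.39, 2.72 to 4.19), with a UMI in 43 of 63 cells. The membrane-associated Pgrmc1 was also higher (243 against 91.4 CPM), with 44 of its 127 UMIs in 1 cell.

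Metabolic and housekeeping lists stood closer to the background. Glycolysis and hypoxia genes had 2 of 18 higher and 2 lower. Their median log2 ratio was -0.52. Hk2, an inducible hexokinase, was lower with 2 UMIs (3.83 against 111 CPM), and Hk1 was higher (65 against 27.5 CPM). The glucose transporter Slc2a1 was lower than in all other cells (38.3 against 78.9 CPM) but not than in remaining cells alone, at 25.9 CPM (ratio 1.48, 0.852 to 2.45), nor when the limits on other cell types were dropped (ratio 1.41). Class I presentation and interferon genes had 5 of 20 higher and 0 lower, among them Ly6c1 (444 against 13 CPM), Bst2 (383 against 96.4 CPM) and Ly6e (903 against 351 CPM). Immediate early and heat shock genes, which respond to handling, had 0 of 18 higher and 6 lower. Their summed level was 7708 CPM in endothelial cells. It was higher in epithelial (13969 CPM) and immune cells (10187 CPM) and lower in remaining (6695 CPM) and decidual cells (2351 CPM).

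Markers of other cell types were low in the endothelial cells. Of the compared markers, all 6 pericyte and smooth muscle, 8 NK and T, 9 phagocyte, 6 epithelial and 5 mesothelial genes were lower, as were 6 of 7 stromal and 4 of 5 decidual genes, whereas the stromal gene Dpt and the decidual gene Bmp2 lay in between. Dpt had all of its 14 endothelial UMIs in the 5 Cdh5-only cells, and without them it was called lower with 0 UMIs. Des, a muscle intermediate filament gene, was not lower when the limits on other cell types were dropped (ratio 2.77). Ncr1, Xcl1, C1qb, Csf1r, Epcam, Upk3b, Msln and Abcc9 had 0 UMIs in all 63 cells. Rgs5, a defining pericyte gene, had 3 UMIs (5.74 against 292 CPM) and Ptprc 3 UMIs, within the limit of the rule. The doublet caller Scrublet marked 3 of 1825 cells and 0 of the 63, too few to take as a working call, and no cell was removed for it. Xist had a UMI in 63 of 63 cells, and 4 Y-linked genes had 0 UMIs in endothelial cells and 5 UMIs in all others.

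A small set of 5 cells carried lymphatic genes. They were defined by at least 1 UMI of at least 2 of Prox1, Lyve1, Mmrn1 and Ccl21a, and 4 of them had all 4 genes. The 4 genes summed to 51 to 128 UMIs in these cells, and among the other 58 endothelial cells 56 had 0 UMIs and 2 had 1 of the genes, with at most 2 UMIs. The 2 distributions did not come near each other. The set made up 7.94% of endothelial cells (exact binomial interval 2.63% to 17.6%) and held 35826 UMIs. Genes used for the definition are described without a ratio as evidence. Prox1, the master factor of lymphatic fate, had 5, 5, 9, 16 and 13 UMIs in the 5 cells. Lyve1, a hyaluronan receptor, had 12, 67, 8, 16 and 0 UMIs. Ccl21a, the chemokine that draws dendritic cells to lymphatics, had 27, 27, 16, 38 and 43 UMIs, and its near-identical copies Ccl21b and Ccl21c had 0, so how reads were shared among the copies is uncertain.

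Receptor use differed between these cells and the other endothelium. Flt4, VEGF receptor 3, which binds VEGF-C, had 6, 13, 3, 13 and 9 UMIs and stood at 1228 CPM in lymphatic-gene-positive cells and 63.7 CPM in the other endothelial cells (ratio 19.3, 11.9 to 31.6). Flt1 had 0 UMIs in all 5 cells, against 1048 CPM in the other 58, at least 12.5-fold lower. Kdr was present in all 5, with 9, 9, 11, 8 and 5 UMIs, and stood at 1172 CPM in lymphatic-gene-positive cells and 916 CPM in the other endothelial cells (ratio 1.28, 0.91 to 1.76). Nr2f2, a partner of Prox1 and a venous factor, had 1, 10, 5, 4 and 13 UMIs and stood at 921 CPM in lymphatic-gene-positive cells and 129 CPM in the other endothelial cells (ratio 7.12, 4.52 to 11).

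Of 845 genes compared between these sets, 23.1% were higher in the lymphatic-gene-positive cells and 13.1% were lower. The median log2 ratio was 0.24. Of the lymphatic list outside the 4 genes, 8 of 11 could be compared and 8 were higher. A gene with few UMIs elsewhere entered only through these 5 cells and could hardly fail to be higher. Fgl2, a fibrinogen-related secreted protein, had 38, 53, 13, 55 and 6 UMIs, against 1 UMI in the other 58 cells. Reln, the secreted glycoprotein reelin, known in lymphatic vessels, had 26 UMIs against 0, at least 118-fold higher. Sema3d, a secreted semaphorin, had 27 UMIs in 5 of 5 cells against 0, at least 122-fold higher. Gucy1a1, Fxyd6, Thy1, Slc45a3, Ntn1 and Pard6g each had 18 to 25 UMIs over all 5 cells and 0 in the other 58. Igfbp5, an insulin-like growth factor binding protein, stood at 3015 CPM in lymphatic-gene-positive cells and 30.8 CPM in the other endothelial cells (ratio 97.8, 56.8 to 181), with 55.6% of its UMIs in the set in 1 of the 5 cells and none in another. Of its 15 UMIs in the other endothelial cells, 13 lay in the 5 Cdh5-only cells, and without those cells its ratio was 692, 187 to 5790.0, on 2 UMIs in the 53 others. Thy1 and Igfbp5 were not particular to them, at 142 and 323 CPM in all cells outside the endothelium.

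Several blood vessel surface and matrix genes were lower or absent in the lymphatic-gene-positive cells. Cd34 and Cd93, surface glycoproteins of blood endothelium, and Pcdh17 had 0 UMIs in the 5 cells and 953, 1306 and 1259 CPM in the others. Gpihbp1, Gja5, Cxcl12 and Kitl also had 0 UMIs there. Sparc stood at 112 CPM in lymphatic-gene-positive cells and 3582 CPM in the other endothelial cells (ratio 0.0312, 0.00848 to 0.0799) and Igfbp7 at 139.6 CPM in lymphatic-gene-positive cells and 3486 CPM in the other endothelial cells (ratio 0.040, 0.013 to 0.0936). Emcn and Plvap kept 6 and 4 UMIs. Matrix genes did not move together. Of 12 compared basement membrane and integrin genes, 4 were lower, 3 higher and 5 in between. Of the arterial list 6 of 7 compared genes were lower and 1 higher, and of the capillary list 3 of 4 were lower. Ctla2a, a cysteine protease inhibitor, had 0 UMIs against 2397 CPM, but 489 of its 1167 UMIs in the other 58 cells lay in the 5 Cdh5-only cells. Its level was 1476 CPM in the 53 cells without them, so that the gene was at least 17.6-fold lower, against 28.6-fold with them. Leaving out the same 5 cells, 189 genes were higher and 121 lower in the lymphatic-gene-positive cells, against 195 and 111 with them. The heat shock genes Hspa1a and Hspb1 had 0 UMIs and Hspa1b had 1, and 7 of 10 compared immediate early and heat shock genes were lower. Genes that can respond to handling thus moved with the set. Whether handling set their levels, and their part in the other differences, was not tested.

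**Figure D4:**
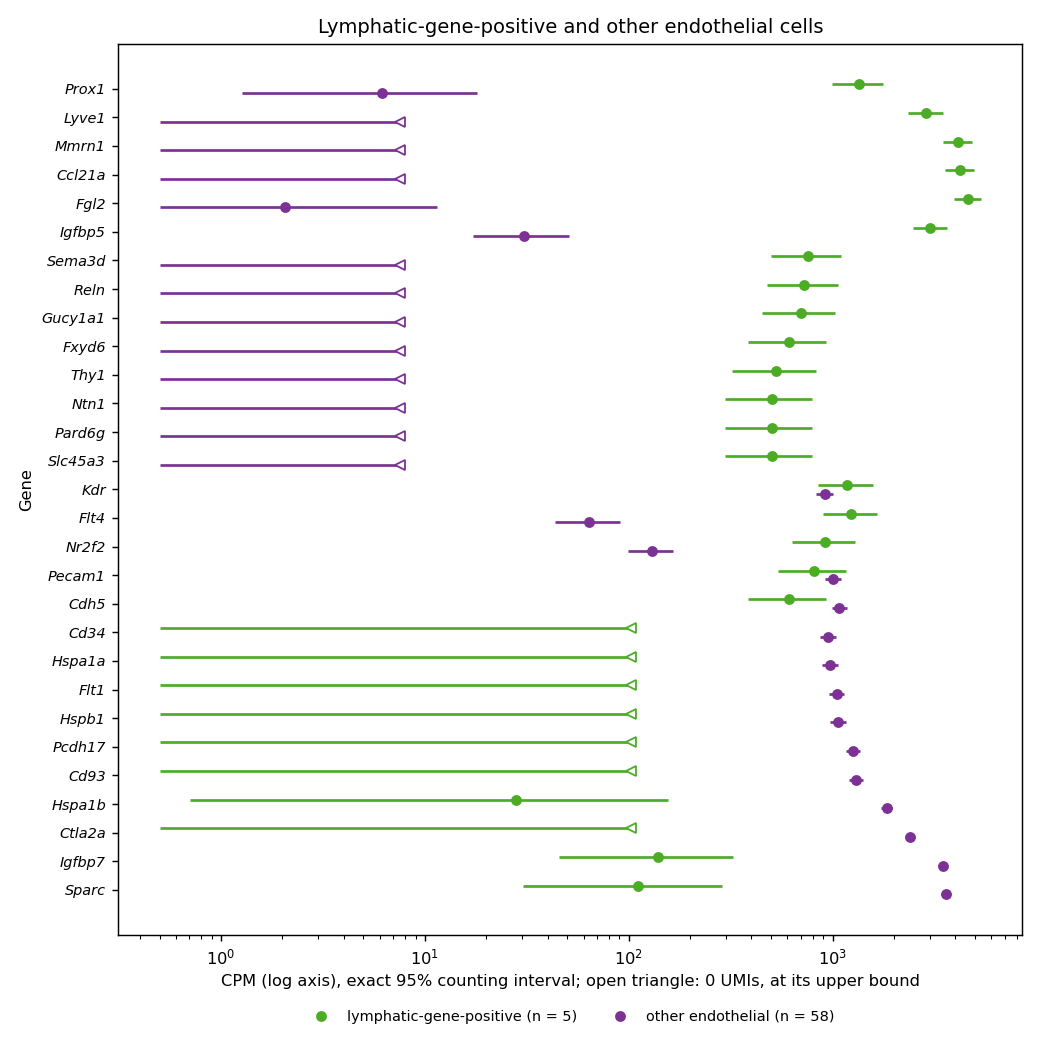
CPM on a log axis, with exact 95% counting intervals, for the 4 defining genes, 10 genes that were higher, 5 further endothelial genes and 10 genes that were lower in the 5 lymphatic-gene-positive cells (green) and the 58 other endothelial cells (purple). Open triangles stand at the upper bound of a count of 0. Kdr and Pecam1 overlap between the sets, whereas Flt1, Cd34 and Cd93 are at 0 in the lymphatic-gene-positive cells.

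The 53 remaining endothelial cells, called blood-type here, ranged from arterial to venous genes. Each was placed by the share of 8 arterial genes (Gja4, Gja5, Hey1, Efnb2, Sox17, Bmx, Sema3g and Dll4) among its UMIs of these and 6 venous genes (Nr2f2, Ephb4, Ackr1, Selp, Aplnr and Vwf). A share of at least 66.7% gave 25 arterial-rich cells, at most 33.3% gave 17 venous-rich cells, and 11 lay in between. These limits were chosen after values were seen, 17 cells lay within 0.1 of one, and the lowest cell had 3 such UMIs, so the sets are ends of a range and not cell types. Gja5, the arterial gap junction protein connexin 40, had UMIs in 11 cells and Aplnr, the apelin receptor of veins and capillaries, in 35. Both occurred in 1 cell and neither in 8. One cell held 32.4% of the Gja5 UMIs. The arterial-rich set also held cells with capillary genes. Its highest counts of Gpihbp1, 39, 22 and 21 UMIs, lay in cells with 0 UMIs of Gja5. The venous-rich set rested in part on Aplnr, which is not a gene of veins alone. In a venous-rich cell with 4 Gpihbp1 UMIs, for example, all 3 UMIs of the venous genes were of Aplnr. Summed over the capillary list, the level was 3002 CPM in arterial-rich and 2995 CPM in venous-rich cells. Of 6 compared capillary genes, 0 were higher and 0 lower. Ackr1, a marker of postcapillary venules, had 0 UMIs in both end sets. The median depth was 6887 UMIs in arterial-rich and 9096 UMIs in venous-rich cells.

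**Figure D5:**
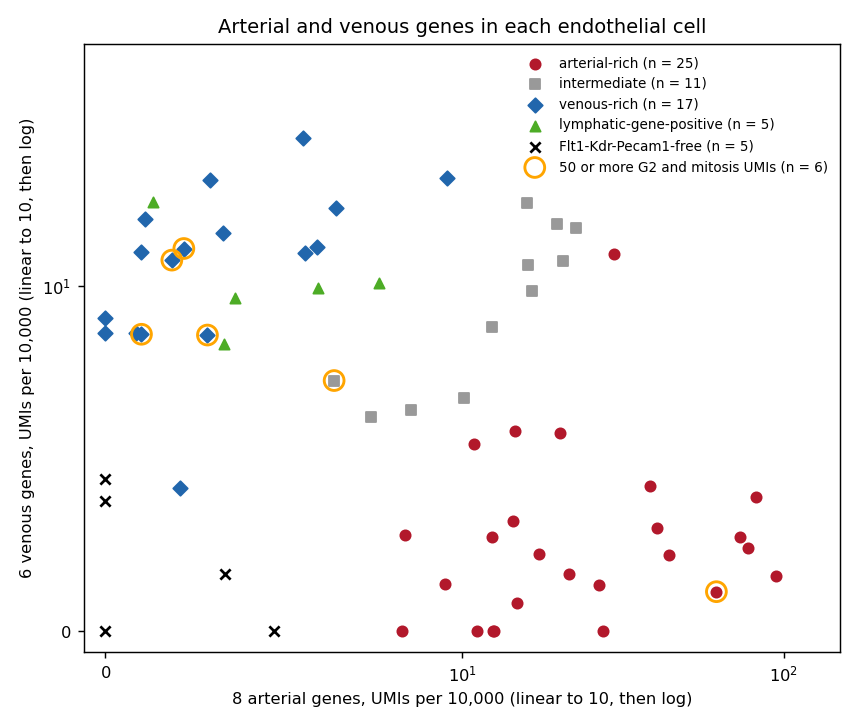
Each point is 1 endothelial cell, by its UMIs per 10,000 of 8 arterial genes (horizontal) and 6 venous genes (vertical), linear to 10 and logarithmic beyond. Arterial-rich cells lie at the lower right, venous-rich cells at the upper left and 11 intermediate cells between them. Orange rings mark the 6 cells with at least 50 UMIs of G2 and mitosis genes, of which 4 are venous-rich.

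Over 5017 genes compared, 7.49% were higher in arterial-rich than in venous-rich cells and 6.5% were lower. The median log2 ratio was -0.04. The calls depended on how the cells were divided. With the 11 cells that had Gja5 set against the 34 that had Aplnr and no Gja5, 274 genes were higher and 237 lower, of which 156 and 71 were among the 376 higher and 326 lower genes of the share-based division. Of the arterial list outside the 8 genes used, 6 of 9 compared genes were higher and 0 lower. Of the venous list outside the 6, 3 of 8 were lower and 1 higher. Cxcl12, a chemokine of arteries, had 0, 1 and 129 UMIs as its lowest, median and highest count in arterial-rich cells, and stood at 1124 CPM in arterial-rich and 12.6 CPM in venous-rich cells (ratio 89.5, 24.5 to 744). One cell held 52.7% of its arterial-rich UMIs. Edn1, the vasoconstrictor endothelin 1, stood at 748 CPM in arterial-rich and 12.6 CPM in venous-rich cells (ratio 59.6, 16.2 to 496), with 66.3% of its arterial-rich UMIs in 1 cell. Jag1, an arterial Notch ligand, stood at 854 CPM in arterial-rich and 50.2 CPM in venous-rich cells (ratio 17, 8.45 to 39.9) and was detected in 10 of 25 and 4 of 17 cells. Ltbp4, a binding protein of latent TGF-beta, was detected in 19 of 25 and 3 of 17 cells (441 CPM in arterial-rich and 50.2 CPM in venous-rich cells). The membrane protein gene Mal stood at 565 CPM in arterial-rich and 6.28 CPM in venous-rich cells, and S100a4, St8sia6, Depp1, Pthlh and Cxcr4 had 23 to 54 UMIs in arterial-rich cells and 0 in venous-rich cells. A gene with few or no UMIs on one side entered only through the other side and could hardly fail to be called, so these values are a description.

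Receptors differed less between the ends. Kdr stood at 932 CPM in arterial-rich and 961 CPM in venous-rich cells (ratio 0.97, 0.782 to 1.2), Flt1 at 1074 CPM in arterial-rich and 860.2 CPM in venous-rich cells (ratio 1.25, 1.01 to 1.55) and Emcn at 835 CPM in arterial-rich and 979.5 CPM in venous-rich cells (ratio 0.853, 0.685 to 1.06). None of these reached 2-fold, which does not show that the sets are alike. Of the pan-endothelial list 2 of 27 compared genes were higher and 0 lower. Igfbp3 was higher in arterial-rich cells (2309 CPM in arterial-rich and 936 CPM in venous-rich cells, ratio 2.47, 2.05 to 2.98). Sele, E-selectin, was lower, with 1 against 16 UMIs, the 16 in 3 venous-rich cells. Igf1 stood at 27.5 CPM in arterial-rich and 251 CPM in venous-rich cells (ratio 0.11, 0.038 to 0.26), Plac8 at 13.8 CPM in arterial-rich and 283 CPM in venous-rich cells (ratio 0.0487, 0.00969 to 0.152) and Odc1, the first enzyme of polyamine synthesis, at 36.7 CPM in arterial-rich and 898 CPM in venous-rich cells (ratio 0.0409, 0.0173 to 0.0828). One cell held 60.1% of the venous-rich Odc1 UMIs. The division by Gja5 and Aplnr shares genes and cells with the share-based one, so agreement between them is no separate support. Under the division by Gja5 and Aplnr, Igf1, Plac8 and Odc1 were also lower, at ratios of 0.15, 0.0419 and 0.112. Under it the ratio of Igfbp3 was 0.713, 0.605 to 0.837, so its higher level did not hold, and Flt1 was lower in cells with Gja5 (ratio 0.45, 0.346 to 0.579). Cxcl12, Edn1 and Mal were higher at smaller ratios of 7.71, 4.7 and 12.5, Ltbp4 at 2.95 and Jag1 at 39.2. Depp1 was no longer called higher (ratio 2.05, 0.929 to 4.49), and Sele was too scarce to compare.

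Immediate early, heat shock and cell cycle genes moved with the same division. Of 18 immediate early and heat shock genes, 11 were higher in arterial-rich cells and 0 lower, with Fos at 1313 CPM in arterial-rich and 421 CPM in venous-rich cells (55.6% of the arterial-rich UMIs in 1 cell) and Egr1 at 528 CPM in arterial-rich and 50.2 CPM in venous-rich cells. All 14 compared G2 and mitosis genes were lower in arterial-rich cells, with Top2a at 45.9 CPM in arterial-rich and 396 CPM in venous-rich cells. These 14 calls rest largely on the same few cells. Of the 501 UMIs of the whole list in venous-rich cells, 210, 94, 82 and 51 lay in 4 cells. Of its 176 UMIs in arterial-rich cells, 94 lay in 1 cell. Of 11 compared S phase genes, 4 were lower in arterial-rich cells and 0 higher. Fos and Egr1 were not called higher under the division by Gja5 and Aplnr (ratios 0.89 and 1.55). The part of these genes in the other differences was not tested. Without the 6 mitotic cells described next, Top2a had 4 UMIs on each side and was too scarce to compare. In that comparison the ratio of Cxcl12 was 65.8, that of Jag1 10.3 and that of Igfbp3 1.89, which was below 2-fold. It gave 275 genes higher and 259 lower, of which 221 and 167 were among the 376 and 326 of the full comparison.

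The capillary gene Gpihbp1 marked a further difference among blood-type cells, noticed after values were seen. Plvap stood at 1361 CPM in the 31 cells with a Gpihbp1 UMI and at 189 CPM in the 22 without one. Igfbp3 stood at 2829 CPM in cells with Gpihbp1 and 794 CPM in cells without it. Esm1, a proteoglycan of sprouting tips, had 24 UMIs in 7 cells with Gpihbp1 and 0 UMIs in cells without it. Gja5 ran the other way, at 83.1 CPM in cells with Gpihbp1 and 987 CPM in cells without it. This rested on few cells, with a Gja5 UMI in 4 of 31 and 7 of 22 cells. Of the 204 Gja5 UMIs in cells without Gpihbp1, 73 lay in 1 cell and 62 in another. Apln had 10 UMIs in 4 cells with Gpihbp1 and 9 UMIs in cells without it, all 9 in 1 cell.

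Endothelial cells rich in G2 and mitosis genes, called mitotic here, were few. Over 22 G2 and mitosis genes, 6 of the 63 cells held 51 to 210 UMIs and the other 57 at most 13. The 6 cells carried 76.6% of the UMIs of these genes in the endothelium. Over 18 S phase genes they held 18 to 91 UMIs. In 1 cell the S phase UMIs were 91 against 58 of G2 and mitosis genes, and in another 60 against 51. The name therefore marks cycling cells and not cells shown to be in mitosis. The 6 cells comprised 4 venous-rich, 1 intermediate and 1 arterial-rich cell and no lymphatic-gene-positive cell, and 5 of them had Aplnr. Their depth was a median of 16878 UMIs, against 6887 over all endothelial cells. Below this cut, S phase UMIs reached 48 in an arterial-rich cell and 38 in a venous-rich cell, so the cut does not place cycling on the venous side alone. Thinned to 2000 UMIs per cell, 5 of 62 endothelial cells (8.06%, exact binomial interval 2.67% to 17.8%) held at least 4 UMIs of G2 and mitosis genes. The share was 10.1% of 1348 other cells, 18.2% of 489 immune and 3.40% of 500 remaining cells. Shallower cells were left out, 1 endothelial against 414 other cells, of which 147 were immune and 224 remaining. At these numbers no difference between endothelial and all other cells was detectable. In the summed counts, 3 of 18 G2 and mitosis genes were higher and 0 lower in endothelial cells, which is no larger a share than the 18.6% of all genes compared. Plk1, a mitotic kinase, stood at 28.7 CPM in endothelial cells and 10.0 CPM in all other cells (ratio 2.87, 1.56 to 4.89) on 15 UMIs in 5 cells, 10 of them in 1 cell. Mki67 stood at 130.1 CPM in endothelial cells and 117 CPM in all other cells (ratio 1.11, 0.857 to 1.41) and did not reach 2-fold. Of the S phase list 3 of 16 were higher, close to the same background, and 1, the ribonucleotide reductase subunit Rrm2, was lower (24.9 against 109.8 CPM), but not without the limits on other cell types (ratio 1.14).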

How the data were processed

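Per the labels, uteri of mated female mice on pregnancy day 7.5 were dissociated with trypsin and sequenced with the Chromium 3' kit. The authors' deposited file holds UMI counts per gene and cell barcode, and per the file headers the software was Cell Ranger 4.0.0, with mm10 as the genome per the submitters' processing notes. The table covers 32287 features, including 2 added reporter sequences, and 2775 barcodes with 16848794 UMIs. The sources used here do not say how barcodes were called, whether introns were counted or how ambient RNA was treated.

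UMIs were summed over the cells of each side and scaled to CPM, and exact Poisson 95% limits were attached. Ratios have exact conditional binomial intervals and shares Clopper-Pearson intervals. Intervals and limits of a count of 0 (3 UMIs) cover counting error only. Computation used Python 3.11.15, numpy 2.4.6, scipy 1.17.1, pandas 2.3.3 and scanpy 1.11.5. The size rule was also tried on simulated counts for the comparison of endothelial with all other cells. Of 6929 genes simulated without a change, 1.28% were called. The simulated counts varied by counting error alone, so they say nothing about differences between cells or about the smaller sets. No test across samples was possible with 1 library.

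The members, gene lists and named genes were chosen with earlier results of these data known. Named genes were, in each list, the 3 with the highest endothelial level and up to 2 with the highest and lowest ratio past the size rule, a fixed set of markers, the 20 leading genes, and 10 genes each way in the lymphatic comparison. The 15 genes each way between arterial-rich and venous-rich cells, the Gpihbp1 division and any other gene named were chosen after values were seen. Gene coordinates came from GENCODE M21 and promoter windows from RefSeq, both on GRCm38.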

Additional observations from a re-analysis of the deposited data

Results flagged for a closer look

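The feature table holds 2 added reporter sequences that no comparison above used, and one of them gave signal. sfGFP-Myc had 7 UMIs in 3 endothelial cells, with 5, 1 and 1 UMIs, which is 13.4 CPM (exact Poisson interval 5.38 to 27.6) and above the 5.74 CPM that a count of 0 allows over these cells. In all other cells it had 15 UMIs in 10 cells, or 1.06 CPM (0.592 to 1.74), of which 10 UMIs lay in 5 remaining cells. The second sequence, iCre, had 0 UMIs in endothelial cells and 1 UMI in all others. The labels of this library give no genotype, and no genotype was inferred.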

How the results depend on the processing

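No paired analysis was possible because 1 library was analysed. Across the alternatives tried, the number of endothelial cells was 48 to 74, against 63, and of lymphatic-gene-positive cells 4 to 6, against 5. Listed genes higher in endothelial cells numbered 135 to 190, against 162. Listed genes lower in endothelial cells numbered 53 to 93, against 81, with 53 at a minimum of 30 UMIs, where fewer genes could be compared. Without the 5 Cdh5-only cells, an alternative chosen after seeing the data, 165 were higher and 84 lower. Of 1416 ratios of named genes under an alternative, 1121 moved by less than counting error, 285 moved further and 10 reversed. Against the remaining cells alone, the ratio became 0.977 for Angpt2, 1.35 for Atf3, 1.27 for Id2, 0.940 for Igfbp3, 1.33 for Plaur and 1.48 for Slc2a1. Without the limits on Ptprc, epithelial genes and Tdo2, which admits 4 more cells, it became 2.77 for Des, 1.14 for Rrm2, 1.41 for Slc2a1 and 1.85 for Tdo2. Dividing blood-type cells by Gja5 and Aplnr instead of by the share of arterial genes turned Igfbp3 to a ratio of 0.713 and Fos to 0.89, and the cause was not tested. Depth limits rare genes most, since a count of 0 over the 63 cells allows up to 5.74 CPM.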
